A study of Mus musculus with 3 samples.

Results

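The genes described here are 10 genes that act outside the cell or at its surface in Wnt signalling: the ligand genes Wnt3 and Wnt8a, the Frizzled receptor genes Fzd2, Fzd5, Fzd7 and Fzd10, the co-receptor genes Lrp5 and Lrp6, and the secreted antagonist genes Sfrp1 and Sfrp2. They were found by gene symbol in the platform annotation, and 10 of 10 were among the 22180 genes measured. Expression was read on Mouse Gene 2.0 ST arrays (Affymetrix) from total RNA of 3 pluripotent mouse cultures, with 1 array for each. EB3, an established line of mouse embryonic stem cells (mESCs), was kept in N2B27 medium for 64 days with 20 ng/ml Activin A and 2 µM PD0325901, an inhibitor of the ERK-activating kinase MEK (Activin+PD), or for 34 days with 2 µM CHIR99021, a GSK3 inhibitor, and 2 µM PD0325901 (2i). Mouse epiblast stem cells (mEpiSCs), which model the primed epiblast after implantation, had been induced from EB3 mESCs and were grown in N2B27 with Activin A (20 ng/ml) and bFGF (12 ng/ml), for a time not given in the labels used here. Both mESC cultures thus shared the MEK inhibitor, the Activin+PD and mEpiSC cultures shared Activin A, and the 2i culture alone held the GSK3 inhibitor. All cells trace to 1 line, each pair of cultures differed in more than 1 agent, the mESC cultures also differed in time, and the effects of those factors cannot be told apart.

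Wnt ligands are lipid-modified proteins that bind the extracellular domain of a Frizzled receptor together with Lrp5 or Lrp6, after which the complex that marks beta-catenin for destruction is held at the membrane and beta-catenin accumulates. CHIR99021 acts below these receptors, by blocking the kinase of that complex. Secreted Frizzled-related proteins carry a Frizzled-like domain that binds Wnts outside the cell. In the mouse embryo Wnt3 is needed to form the primitive streak, and Wnt signalling both helps to keep embryonic stem cells in the naive state and, later, drives epiblast cells towards mesoderm.

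With 1 array per culture there was no spread between cultures, so no difference was tested, and "higher" and "lower" describe these 3 arrays. Levels are log2 of the deposited intensity, and each difference is the log2 level of the first-named culture minus that of the second. A background was set per array from 1405 probe sets of olfactory or vomeronasal receptors, as their 95th percentile, and lay at a log2 level of 5.50 in Activin+PD, 5.59 in 2i and 5.57 in mEpiSC. Disagreement between probe sets of 1 gene, taken over 620 genes, gave a probe set SD of 0.24 for Activin+PD minus 2i. The SD was 0.36 when mEpiSC was set against 2i, and 0.33 against Activin+PD. These SDs cover the error of probe sets alone, and differences over 2 SD are described below as beyond probe set error. All 8 naive pluripotency markers were at least 2-fold lower in mEpiSCs than in either mESC culture. Of 6 primed markers, 6 were at least 2-fold higher in mEpiSCs than in 2i and 5 than in Activin+PD, where Otx2 differed by 0.56. In Activin+PD against 2i, 2 of 5 primed markers compared were at least 2-fold higher (Fgf5 and Otx2) and 0 lower. Of 8 fibroblast markers, which would show feeder cells, 5 were above background on each array, Postn, Dcn and Lum were below it on all 3, and none was 2-fold apart in any comparison. Of 5 primitive endoderm markers compared, 1 (Gata6) was at least 2-fold higher in mEpiSC than in 2i, and of 5 neural markers 1 was higher and 1 lower. In mEpiSC against 2i, 4.53% of all genes compared were higher and 4.96% lower. The shares were 3.59% and 5.37% in mEpiSC against Activin+PD, and 1.38% and 0.820% in Activin+PD against 2i.

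Every culture was the extreme for some of the 10 genes. The mEpiSC array held the highest level of 5 of them, the Activin+PD array of 3 and the 2i array of 2. Over the 3 arrays, 6 genes spanned at least 2-fold, which were Wnt3, Wnt8a, Fzd2, Fzd7, Fzd10 and Sfrp1, and the other 4 stayed within 2-fold. In Activin+PD against 2i, 1 of the 10 genes was at least 2-fold higher (Fzd7) and 2 were at least 2-fold lower (Wnt8a and Fzd10), where 1.38% and 0.820% of 14022 genes compared were higher and lower. In mEpiSCs against 2i, 3 were higher (Wnt3, Fzd7 and Fzd2) and 1 lower (Fzd10), beside 4.53% and 4.96% of 14223 genes. In mEpiSCs against Activin+PD, 2 were higher (Wnt8a and Wnt3) and 1 lower (Sfrp1), beside 3.59% and 5.37% of 14383 genes. Their median differences were 0.23, 0.49 and 0.26 in that order, beside -0.006, 0.03 and 0.04 over all genes compared. The 10 genes were chosen with results of these arrays known, so these shares are descriptions. The comparisons also share arrays in pairs and are not independent of each other.

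**Figure D1:**
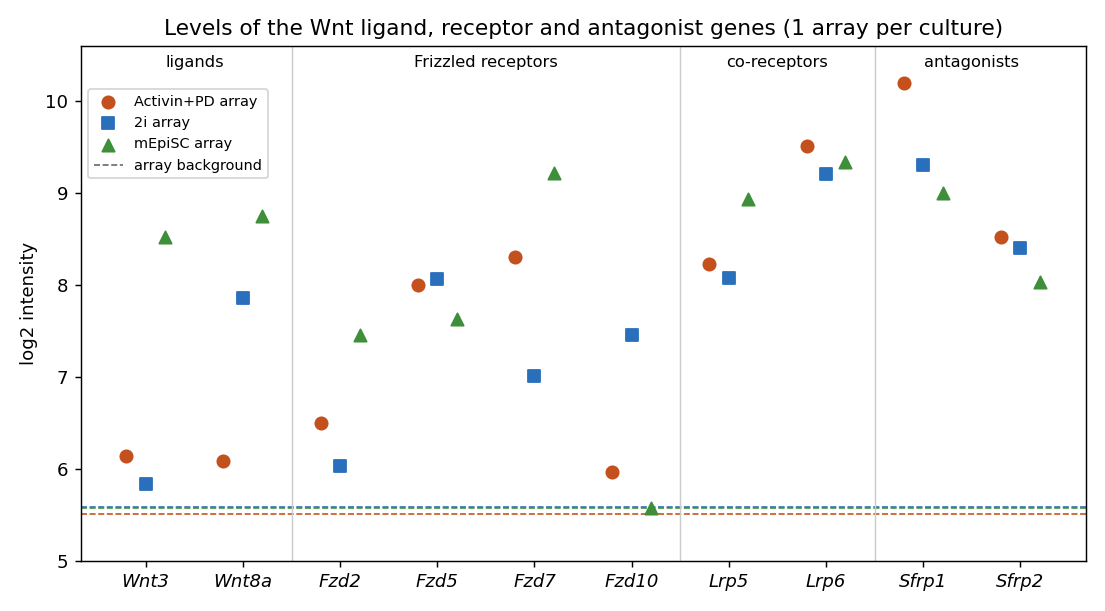
Log2 intensity of each gene on the Activin+PD (circles), 2i (squares) and mEpiSC (triangles) arrays, with dashed lines at each array's background. Wnt3 is far above the background lines in mEpiSC alone, Wnt8a is near them in Activin+PD alone, and Fzd10 is well above them in 2i alone; levels are comparable within a gene and not between genes.

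**Figure D2:**
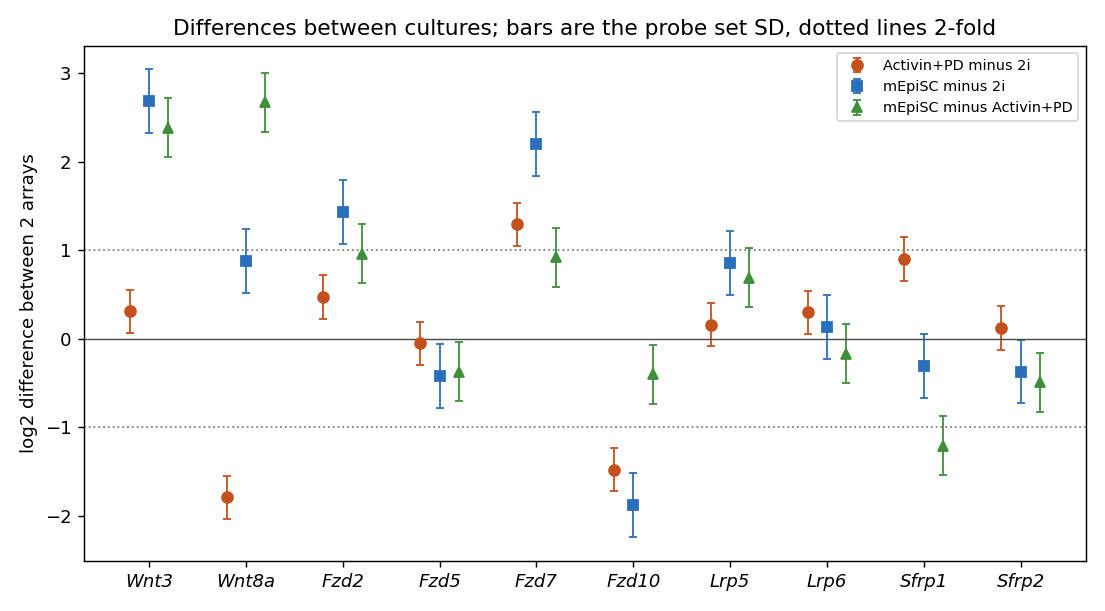
Log2 differences of each gene in the 3 comparisons, with bars of 1 probe set SD (0.24, 0.36 and 0.33) and dotted lines at 2-fold. Fzd7 is above 0 in all 3 comparisons, Wnt8a is at -1.79 and 2.67 in the comparisons with Activin+PD, and Fzd5, Lrp6 and Sfrp2 stay between the dotted lines.

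Promoter windows from RefSeq (GRCm38.p6) were read here for 5 of the 10 genes (Wnt3, Fzd5, Fzd7, Fzd10 and Sfrp2). The other genes had no window here, which does not show that RefSeq lacks their promoters. The 3 of those 5 that were at least 2-fold apart in a comparison are shown, since each had a different culture profile. Each line gives the 250 bases before the annotated start, 5′ to 3′, at chr11:103773925-103774174 for Wnt3, chr1:59481897-59482146 for Fzd7 and chr5:128600856-128601105 for Fzd10, all on the + strand. Capitals mark CAGAC or its reverse complement, the SMAD box, and the Fzd7 window holds none. The windows were also searched on both strands for CTTTGAA and CTTTGAT, which TCF/LEF factors bind and which do not overlap with the SMAD box. Neither TCF/LEF motif was present in any of the 5 windows, and 7.48% of all 32851 windows held one. The SMAD box was present once each in the windows of Wnt3, Fzd10 and Sfrp2, and 42.2% of all windows held it. The GC content was 68.0% for Wnt3, 65.2% for Fzd7 and 76.4% for Fzd10, against a median of 52.4% over all windows. A match is a description of these letters and not a bound site, and no match says only that the letters are not in this window.
Wnt3: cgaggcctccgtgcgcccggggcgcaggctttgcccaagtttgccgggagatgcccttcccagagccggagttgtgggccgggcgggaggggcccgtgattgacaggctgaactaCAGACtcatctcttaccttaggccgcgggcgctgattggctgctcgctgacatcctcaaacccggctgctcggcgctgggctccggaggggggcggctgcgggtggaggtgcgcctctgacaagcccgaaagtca
Fzd7: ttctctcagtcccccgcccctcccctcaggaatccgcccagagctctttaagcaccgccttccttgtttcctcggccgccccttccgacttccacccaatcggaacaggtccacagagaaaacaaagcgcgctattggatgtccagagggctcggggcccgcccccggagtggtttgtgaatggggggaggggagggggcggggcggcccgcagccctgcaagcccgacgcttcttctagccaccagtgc
Fzd10: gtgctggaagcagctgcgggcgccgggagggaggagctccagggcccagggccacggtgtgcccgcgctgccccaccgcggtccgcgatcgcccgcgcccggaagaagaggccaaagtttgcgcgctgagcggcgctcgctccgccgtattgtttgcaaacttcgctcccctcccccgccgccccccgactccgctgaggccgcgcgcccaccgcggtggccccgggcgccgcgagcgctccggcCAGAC

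Both ligand genes were highest in mEpiSCs, and they parted in the mESC cultures. Wnt3, the streak-inducing ligand, stood at 6.14 in Activin+PD, 5.83 in 2i and 8.52 in mEpiSC. The mESC arrays were both low, close to background and within probe set error of each other (0.31), and the mEpiSC array was high. Wnt3 was thus 6.42-fold higher in mEpiSCs than in 2i (log2 difference 2.68) and 5.19-fold higher than in Activin+PD (2.38), and it ranked 60th among the 7651 genes that were higher in mEpiSCs than in 2i. Its SMAD-box-bearing promoter window is the first of those printed above. Wnt8a, a ligand expressed in the posterior epiblast and early streak of the mouse embryo, stood at 6.08 in Activin+PD, 7.86 in 2i and 8.75 in mEpiSC. Here the Activin+PD array was the low one, and the other arrays differed from each other by 0.88, beyond probe set error but under 2-fold. In Activin+PD the gene was 3.45-fold lower than in 2i, a difference of -1.79 that 25 other genes of the 14022 matched or passed in the same direction. Against mEpiSC it was 6.37-fold lower in Activin+PD, and mEpiSC minus Activin+PD was 2.67. The Wnt8a profile was uncommon, and no other gene of the 14538 above background on some array lay within 0.25 of it in the distance used for likeness.

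The low levels of both ligands lay in the range where background matters. With a background at the 99th percentile of the same olfactory and vomeronasal probe sets (6.42 in Activin+PD, 6.54 in 2i and 6.42 in mEpiSC on the log2 scale), Wnt3 was not above it in either mESC culture and Wnt8a was not above it in Activin+PD. The differences were then bounds. Wnt3 was at least 3.94-fold higher in mEpiSC than in 2i and at least 4.28-fold higher than in Activin+PD. Wnt8a was at least 2.72-fold lower in Activin+PD than in 2i and at least 5.03-fold lower than in mEpiSC. Of all 19 mouse Wnt ligand genes, 13 exceeded the 95th percentile in Activin+PD, 11 in 2i and 13 in mEpiSC. Above the 99th percentile there were 0 in Activin+PD, 2 in 2i (Wnt8a and Wnt5b, at 6.69) and 3 in mEpiSC (Wnt3, Wnt8a and Wnt4, at 6.44). No ligand gene other than Wnt3 and Wnt8a was 2-fold apart in any comparison, and Wnt5b came nearest, at 5.82 in Activin+PD against 6.69 in 2i (-0.88).

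Of the Frizzled receptor genes, which encode the proteins that bind Wnt directly, Fzd7 and Fzd2 were lowest in 2i, Fzd10 was highest in 2i, and Fzd5 varied little. Fzd7, a receptor known to act in pluripotent cells, stood at 8.30 in Activin+PD, 7.01 in 2i and 9.22 in mEpiSC. The arrays were graded, with 2i lowest and mEpiSC highest, and each step was beyond probe set error. Fzd7 was 2.44-fold higher in Activin+PD than in 2i (1.29) and 4.60-fold higher in mEpiSC than in 2i (2.20). The step from Activin+PD to mEpiSC, 0.92, was just under 2-fold. Fzd7 ranked 100th of the 6875 genes that were higher in Activin+PD than in 2i and 111th of the 7651 that were higher in mEpiSC than in 2i. Fzd2 encodes a close relative of Fzd7 in the same receptor subgroup and had the same order at lower contrast. It stood at 6.50 in Activin+PD, 6.03 in 2i and 7.46 in mEpiSC. The mESC arrays differed by 0.47, within probe set error (2 SD, 0.49), and mEpiSC was 2.69-fold above 2i (1.43). From Activin+PD to mEpiSC the difference of Fzd2 was 0.96, just under 2-fold, and it passed 2-fold after quantile normalisation (1.01) or with 16 subtracted from each intensity (1.10). With the 99th percentile background Fzd2 was not above it in 2i, and its excess in mEpiSC over 2i was at least 1.89-fold.

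Fzd10 ran the other way. It stood at 5.96 in Activin+PD, 7.45 in 2i and 5.57 in mEpiSC, so the 2i array was high and the other arrays were low. The mEpiSC intensity, 47.4, was not above that array's background of 47.5, and values there are bounds. Fzd10 was 2.80-fold lower in Activin+PD than in 2i (-1.48, the 42nd lowest of 14022 genes) and lower by at least 3.68-fold in mEpiSC (at least 1.88 on the log2 scale). Against Activin+PD it was lower in mEpiSC by at least 0.40 on the log2 scale, a difference within probe set error (2 SD, 0.67). With the 99th percentile background Fzd10 was lower than in 2i by at least 2.04-fold in Activin+PD and by at least 2.05-fold in mEpiSC. Fzd5, which the mouse needs for yolk sac and placental vessels, stood at 8.0 in Activin+PD, 8.06 in 2i and 7.63 in mEpiSC. Its differences of -0.05, -0.42 and -0.37 were all within probe set error. In the Activin+PD comparison 80.1% of genes differed by at least as much as Fzd5.

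Neither co-receptor gene was 2-fold apart. Lrp6, the co-receptor whose cytoplasmic tail is phosphorylated on Wnt binding, stood at 9.51 in Activin+PD, 9.21 in 2i and 9.34 in mEpiSC. All 3 arrays lay within 0.30 of each other and within probe set error. A second, dimmer probe set of Lrp6 gave 6.37, 6.22 and 6.45 in the same order, likewise within probe set error, and put mEpiSC rather than Activin+PD highest. Lrp5, its close paralogue, stood at 8.23 in Activin+PD, 8.08 in 2i and 8.93 in mEpiSC. The mESC arrays were alike (0.16) and mEpiSC was higher, by 0.85 over 2i and by 0.69 over Activin+PD, both beyond probe set error and under 2-fold.

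The antagonist genes were both highest in Activin+PD and lowest in mEpiSC. Sfrp1 stood at 10.20 in Activin+PD, 9.30 in 2i and 9.0 in mEpiSC. The Activin+PD array was high and the other arrays differed by 0.31, within probe set error. Sfrp1 was 2.31-fold lower in mEpiSC than in Activin+PD (-1.21) and 1.87-fold higher in Activin+PD than in 2i (0.90), which was beyond probe set error and under 2-fold. In Activin+PD against 2i, 2.89% of genes differed by at least as much as Sfrp1. Sfrp2 stood at 8.52 in Activin+PD, 8.40 in 2i and 8.03 in mEpiSC, with differences of 0.12, -0.37 and -0.49, all within probe set error. Its second, dimmer probe set gave 6.31, 6.05 and 6.02 in the same order, with 2i and mEpiSC nearly level (-0.03) and all differences within probe set error.

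**Figure D3:**
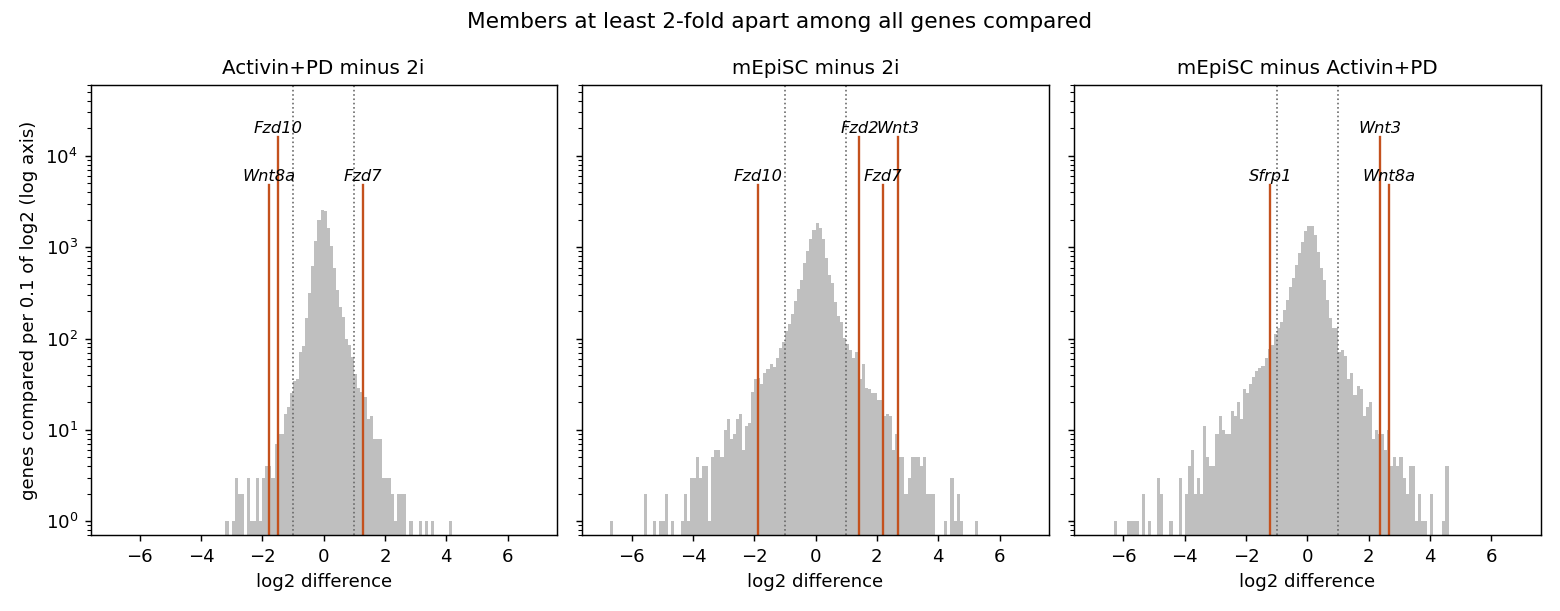
Number of genes compared (grey, log axis) by log2 difference in each comparison, with orange lines at those of the 10 genes at least 2-fold apart and dotted lines at 2-fold. In Activin+PD minus 2i, Wnt8a (-1.79) and Fzd10 (-1.48) lie in the sparse lower tail; in the mEpiSC comparisons more genes lie past the dotted lines, and Wnt3 (2.68 and 2.38) and Wnt8a (2.67) lie far into the upper tail.

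For the 6 genes that spanned at least 2-fold, the genes most like them were found by the Euclidean distance between log2 profiles over the 3 arrays, each centred on its own mean. With 3 arrays this is a description of shape, and many genes can share one. Nearest to Wnt3 were S100a6 (distance 0.048), which encodes a calcium-binding protein, Id2 (0.13), an inhibitor of bHLH factors, and Pou3f1 (0.14), a transcription factor of the primed epiblast. S100a6 was below background in both mESC cultures, so its distance rests on values that are not above background on 2 of 3 arrays. The nearest profile to Wnt8a was that of Prom1, the CD133 glycoprotein gene (0.35), at 5.64 in Activin+PD, 7.01 in 2i and 8.33 in mEpiSC, followed by Casp8 (0.46) and Foxi3 (0.60). Nearest to Fzd7 was Sox4 (0.062), a transcription factor gene that stood at 8.02, 6.65 and 8.87 in the same order, with Kif21a (0.10) and Sort1 (0.11) next, and 9 genes lay within 0.25. Plbd1 (0.065), the haem transporter family gene Flvcr2 (0.068) and Epp13 (0.13) were nearest to Fzd10, with 11 genes within 0.25. In mEpiSC, Epp13, like Fzd10, was not above background. Fzd2 had 146 genes within 0.25, the nearest being the sterol synthesis gene Cyp51 (0.029), Cyp39a1 (0.034) and the ETS factor gene Etv1 (0.038). Sfrp1 had 101, the nearest being Susd2 (0.021), Dclk2 (0.045) and Mgat4a (0.047).

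Beyond the 10 genes, 62 further genes of Wnt secretion, reception and inhibition were listed, all of them on the array. Of these, 2 of 49 compared were at least 2-fold apart in Activin+PD against 2i (4.08%, beside 2.20% of all genes), 13 of 53 in mEpiSC against 2i (24.5%, beside 9.48%) and 10 of 55 in mEpiSC against Activin+PD (18.2%, beside 8.96%). Their median differences were -0.02, 0.20 and 0.22. Counting all 72 genes by role, 1 of 13 ligand genes compared was higher in mEpiSC than in 2i and 0 lower. In that comparison 3 of 10 Frizzled genes were higher and 1 lower, 0 of 6 co-receptor genes higher and 1 lower, 2 of 13 antagonists higher and 1 lower, and 3 of 15 modulators higher and 1 lower. Over all genes compared there, 4.53% were higher and 4.96% lower. A gene that is dim in both mESC cultures is compared only if it is bright in mEpiSC, so these shares describe the genes compared and not the whole list. In bulk RNA, fewer cells that express a gene and less RNA of it per cell cannot be told apart.

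Among the other Frizzled genes, Fzd6, a receptor known for planar cell polarity, stood at 6.40 in Activin+PD, 6.19 in 2i and 8.09 in mEpiSC and was 3.75-fold and 3.22-fold higher in mEpiSC than in 2i and Activin+PD. Neither mESC level of Fzd6 was above the 99th percentile background. All 10 Frizzled genes were above the 95th percentile background in both mESC cultures and 9 in mEpiSC. At the 99th percentile 5 exceeded it in Activin+PD, 3 in 2i (Fzd5, Fzd7 and Fzd10) and 7 in mEpiSC. Ror1, a receptor tyrosine kinase that binds Wnt5a, was lower in mEpiSC, at 7.24 against 8.27 in 2i (-1.03) and 8.41 in Activin+PD (-1.17). Ptk7, a pseudokinase of planar cell polarity, was at 9.05 in mEpiSC against 7.80 in Activin+PD (1.24).

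Enzymes that put the lipid on Wnt or take it off were lower in mEpiSC. Porcn, the acyltransferase that Wnt proteins need to be secreted and to bind Frizzled, stood at 9.02 in Activin+PD, 8.87 in 2i and 6.94 in mEpiSC. The mESC arrays were alike, and mEpiSC was 3.81-fold below 2i (-1.93) and 4.23-fold below Activin+PD (-2.08). Notum, which removes that lipid, stood at 8.40, 8.54 and 5.73 in the same order, with differences of -2.81 from 2i and -2.67 from Activin+PD. A second probe set of Notum was dimmer, at 6.43, 6.48 and below background in mEpiSC, and was lower there by at least 0.91 and at least 0.86. Wls, the carrier of lipid-modified Wnt, was within 2-fold on all arrays, at 7.16, 6.93 and 7.43.

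Several secreted antagonists and R-spondin pathway genes were above background in mEpiSC alone. Cer1, which binds Nodal and BMP and whose Xenopus counterpart also binds Wnt, stood at 9.74 in mEpiSC and was below background in both mESC cultures, higher by at least 4.15 than in 2i and at least 4.23 than in Activin+PD. Frzb, a secreted Frizzled-related protein gene, was at 6.45 in mEpiSC and below background elsewhere, higher by at least 0.86 and at least 0.94, so its bound is under 2-fold although its measured values were over 2-fold apart. Lgr5, a receptor for R-spondins, was at 6.96 in mEpiSC and below background in both mESC cultures (at least 1.37 over 2i and 1.46 over Activin+PD), while its second probe set, at 5.60 in mEpiSC, was only just above background. Rspo3, an R-spondin ligand that stabilises Frizzled at the surface, was at 6.60 in mEpiSC and higher by at least 1.02 and 1.10. Rspo1 had the order of Fzd7, at 7.69 in Activin+PD, 7.07 in 2i and 8.29 in mEpiSC (1.23 for mEpiSC minus 2i). Unlike for Fzd7, its step from Activin+PD to mEpiSC, 0.60, was within probe set error. Dkk1, which blocks Lrp5 and Lrp6, was at 6.05, 6.48 and 7.24 in the same order (1.19 for mEpiSC minus Activin+PD). Sfrp5 was at 6.50 in Activin+PD and below background in 2i, higher by at least 0.91, a bound under 2-fold.

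Of 6 proteoglycan genes whose products bind Wnt at the surface, 3 were at least 2-fold higher and 1 lower in mEpiSC than in 2i. Over all genes compared, 4.53% were higher and 4.96% lower. Gpc4 stood at 8.31 in Activin+PD, 6.78 in 2i and 7.88 in mEpiSC, and the 2i array was the low one by 1.53 and 1.10. Gpc3 stood at 7.23, 6.32 and 7.90 in the same order, and Gpc1 at 7.74, 7.36 and 8.38. The second probe set of Gpc1 gave 0.17 for mEpiSC minus 2i where the first gave 1.02. Sdc4, a syndecan, ran the other way, at 8.19, 9.07 and 7.88, and was lower in mEpiSC than in 2i by 2.28-fold (-1.19).

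**Figure D4:**
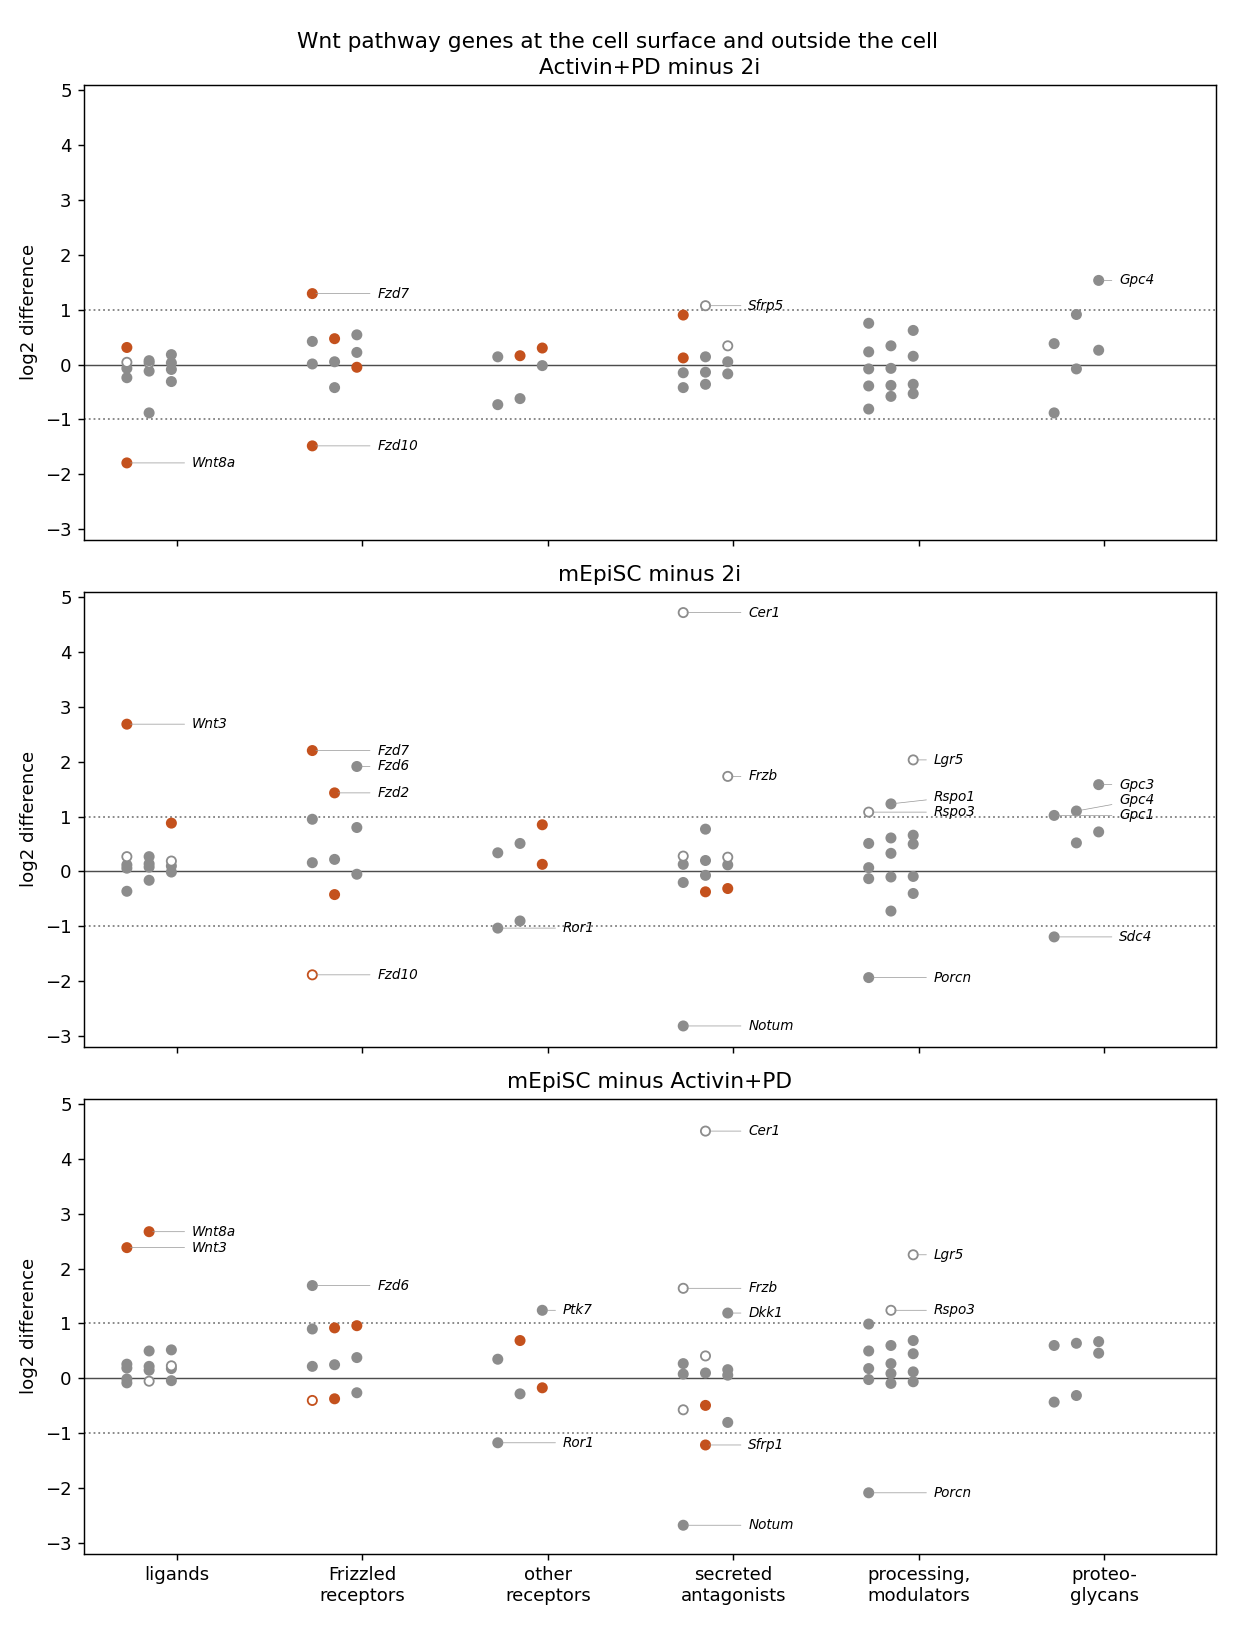
Log2 differences of the genes compared among 72 listed Wnt pathway genes, in 6 groups (x axis), 1 panel per comparison. The 10 genes described first are in orange and the others in grey, with open points where the dimmer array was not above background and dotted lines at 2-fold. Few points lie past the dotted lines in Activin+PD minus 2i (5 of 59 genes compared), and more do in mEpiSC minus 2i (17 of 63) and mEpiSC minus Activin+PD (13 of 65).

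Transcripts that beta-catenin with TCF/LEF induces were read beside the ligands and receptors, on the 6 of 7 listed target genes found on the array. In Activin+PD against 2i, 4 of 6 were at least 2-fold lower and 0 higher, beside 0.820% and 1.38% of all genes compared. Their median difference was -1.69. Axin2, a feedback inhibitor, was at 7.47 in Activin+PD, 9.43 in 2i and 8.30 in mEpiSC, and Sp5 was at 5.98, 7.42 and 7.16. Both were lowest in Activin+PD and highest in 2i, but Sp5 in mEpiSC was within probe set error of 2i (-0.26). A second probe set of Axin2 gave 6.85, 7.88 and 7.05, with mEpiSC within probe set error of Activin+PD (0.20). Lef1 was at 7.53, 8.23 and 8.79 and Nkd1 at 5.91, 6.13 and 6.41, the order that Wnt8a also had. Cdx1 was at 5.70, 7.62 and 5.76 and Cdx2 at 5.84, 8.64 and 5.91, both high in 2i alone, as Fzd10 was. In the other direction, 4 of 6 primitive streak and mesoderm markers were at least 2-fold higher in mEpiSC than in 2i and 0 lower. Over all genes compared there, 4.53% were higher and 4.96% lower. Among the 4 were Mixl1 at 9.40 against 6.02 and Eomes at 9.43 against 7.05. The summed intensity of the 6 markers was 447 in Activin+PD, 452 in 2i and 2033 in mEpiSC. Tbx6 was level, at 6.15, 6.20 and 6.20, and Mesp1 was above background in mEpiSC alone, at 5.68. Whether the markers that were higher play a part in the Wnt3 difference was not tested.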

How the data were processed

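Per the submitters' processing notes and the series' design text, the arrays were processed with RMA and GeneSpring GX 11.5. The deposited intensity of each probe set was on a linear scale (lowest values near 19 on each array), so log2 was taken. No source used here says whether a constant was added before deposit. RMA makes the arrays' distributions alike. Of 33793 probe sets, 23521 had 1 gene symbol, 1814 several and 8458 were not listed. Symbols were updated through Entrez identifiers, and the probe set with the highest mean stood for a gene. A gene was compared where the brighter of 2 arrays was above its background, and counted at 2-fold or more. The 3 arrays, 1 per culture, limit the precision, and no p-value was computed. Where the dimmer array was not above background, the difference is a bound against that background. Genes named beyond the 10 were the listed pathway genes at least 2-fold apart and the 3 nearest profiles, while Wnt4, Wnt5b, Wls and the marker genes singled out were named after their values were seen. The members, the lists (pathway, target and marker genes) and the alternatives were chosen with earlier results of these data known. Planned protein features were not computed, as no protein sequences were used here. The counting step was run on simulated data with large changes in genes well above background. That run does not cover differences near 2-fold or levels near background. Alternatives covered scale, normalisation, centring, probe set choice, background, filter and threshold. Python 3.11.15 and pandas 2.3.3 were used.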

Additional observations from a re-analysis of the deposited data

How the results depend on the processing

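No paired analysis was possible because each culture had 1 array. Over 7 of the 8 alternatives, the number of the 10 genes at least 2-fold apart stayed at 3 for Activin+PD minus 2i and at 4 for mEpiSC minus 2i. It was 3 or 4 for mEpiSC minus Activin+PD, where Fzd2 passed 2-fold after quantile normalisation or with 16 subtracted. Some alternatives had little or no room to change these counts. All 10 genes were already compared, so dropping the filter could add none. Only Lrp6 and Sfrp2 had a second probe set, and neither was 2-fold apart on either probe set. The higher background percentile was asked of the brighter array only. As a bound on the dimmer array, it left Fzd2 at least 1.89-fold higher in mEpiSC than in 2i, so 2-fold is not secured there. A 1.5-fold threshold gave 4 and 6 genes in the first comparisons and moved the last to 6. In that order 7.10%, 19.7% and 19.7% of all genes compared passed it, against 2.20%, 9.48% and 8.96% at 2-fold. Beside those same rises over all genes, the counts over the 72 listed pathway genes moved from 5 to 14, from 17 to 27 and from 13 to 24. None of the 30 differences of the 10 genes changed sign under the 4 alternatives of scale, normalisation, centring and probe set choice, and all 10 that were at least 2-fold stayed so. With 16 subtracted, 5 moved by more than 1 probe set SD, all away from 0: Fzd10 to -1.77 and -2.34 against 2i, Wnt3 to 3.09 for mEpiSC minus 2i, and Wnt8a to -2.07 in Activin+PD against 2i and to 3.01 in mEpiSC against Activin+PD. Signal near background limits Wnt3, Wnt8a, Fzd2 and Fzd10 on their dim arrays.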
